A study of Homo sapiens with 2 samples.

Results

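The translation initiation factor genes were followed in NCI-H838 cells, an established human lung adenocarcinoma line, with and without added LINC00472. Members were all genes of the deposited series table whose symbol starts with EIF, without hyphenated symbols and without pseudogenes, which gave 55 of 27685 genes. One culture was transiently transfected with the pCDH plasmid holding full-length LINC00472 (an RNA that encodes no known protein), and the other with the empty pCDH plasmid. Both received the same lipid carrier, and RNA was taken 48 hours later. With a single library on each side, nothing that follows could be checked between replicates, and p-values are not given. The promoter that drove the insert is not given in the sources used here.

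Initiation factors bring the initiator tRNA, the small ribosomal subunit and the messenger RNA together and place the ribosome on the start codon. The cap complex eIF4F (the cap binder eIF4E, the scaffold eIF4G and the helicase eIF4A) recruits the messenger RNA, eIF3 holds the small subunit, eIF2 delivers the tRNA, and eIF2B recharges eIF2 with GTP. Initiation has well-known control points. Kinases that phosphorylate eIF2 alpha restrain initiation under stress, and the 4E-binding proteins sequester eIF4E when mTOR is inactive.

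The LINC00472 library held 21093055 gene counts and the control 54823706. LINC00472 was at 25.3 FPKM (fragments counted relative to transcript length and sequencing depth) in the library labelled as overexpressing it and at 4.74 FPKM in the control. Keratins KRT7, KRT8 and KRT18, which mark simple epithelium, had between 12.0 and 26.5 FPKM with LINC00472 and between 37.1 and 157 FPKM in the control. Of the other epithelial markers, CDH1 had 239 against 368 counts (a scaled log2 ratio of 0.47), EPCAM 48 against 117 (-0.19) and KRT19 0 against 44. The blood and vessel markers PTPRC and PECAM1 had 0 counts with LINC00472 and 32 and 6 in the control. Of the other markers of further cell types, COL1A1 had 237 against 458 counts (a scaled log2 ratio of 0.14) and COL1A2 15 against 68. ALB had 0 against 7 and CD3E 0 in both libraries. The part of these differences in the results below was not tested. Of the lung markers, NKX2-1 and SFTPB had 0 counts in both libraries, SFTPC had 0 against 7 counts and NAPSA had 2.40 and 0.742 FPKM. Ratios below compare TMM-scaled counts (scaled by trimmed means of the gene ratios) as log2 of LINC00472 over control. A gene is called higher or lower when its mean over both libraries reaches 1 CPM (scaled counts as parts of 1e6), the ratio reaches 2-fold, and equality lies outside its 95% interval from counting. The interval covers counting error only. In these bulk RNA samples, fewer cells that express a gene and less of its RNA per cell cannot be told apart.

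Most initiation factor messenger RNAs were lower in the LINC00472 library. Of the 55 genes, 51 were at the expression minimum, and of these 31 were lower, 0 were higher and 20 met neither rule. Among all 14012 genes at the minimum, 23.8% were lower and 16.3% were higher, and among 12320 protein-coding genes 26.3% were lower and 11.2% were higher. The median log2 ratio was -1.20 for the initiation factors, -0.19 for all genes and -0.32 for protein-coding genes. The 55 genes together made up 0.653% of all counts with LINC00472 (exact Clopper-Pearson 95% interval 0.650 to 0.657) and 1.21% in the control (1.208 to 1.214). The scaling moved the count of lower members. Scaling to total counts gave 20, beside 16.3% of all genes lower and 22.5% higher, and upper quartile scaling gave 17, beside 14.2% lower and 25.1% higher. These scalings shifted the median of all genes from -0.19 to 0.11 and 0.21. No member was higher under any setting tried. The remaining 4 genes lay under the minimum. The binding protein gene EIF4EBP3 had 0 against 3 counts, the cap binder homologs EIF4E3 5 against 12 and EIF4E1B 0 in both, a result that allows up to 3 counts in each library, and EIF1AY was the fourth.

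**Figure D1:**
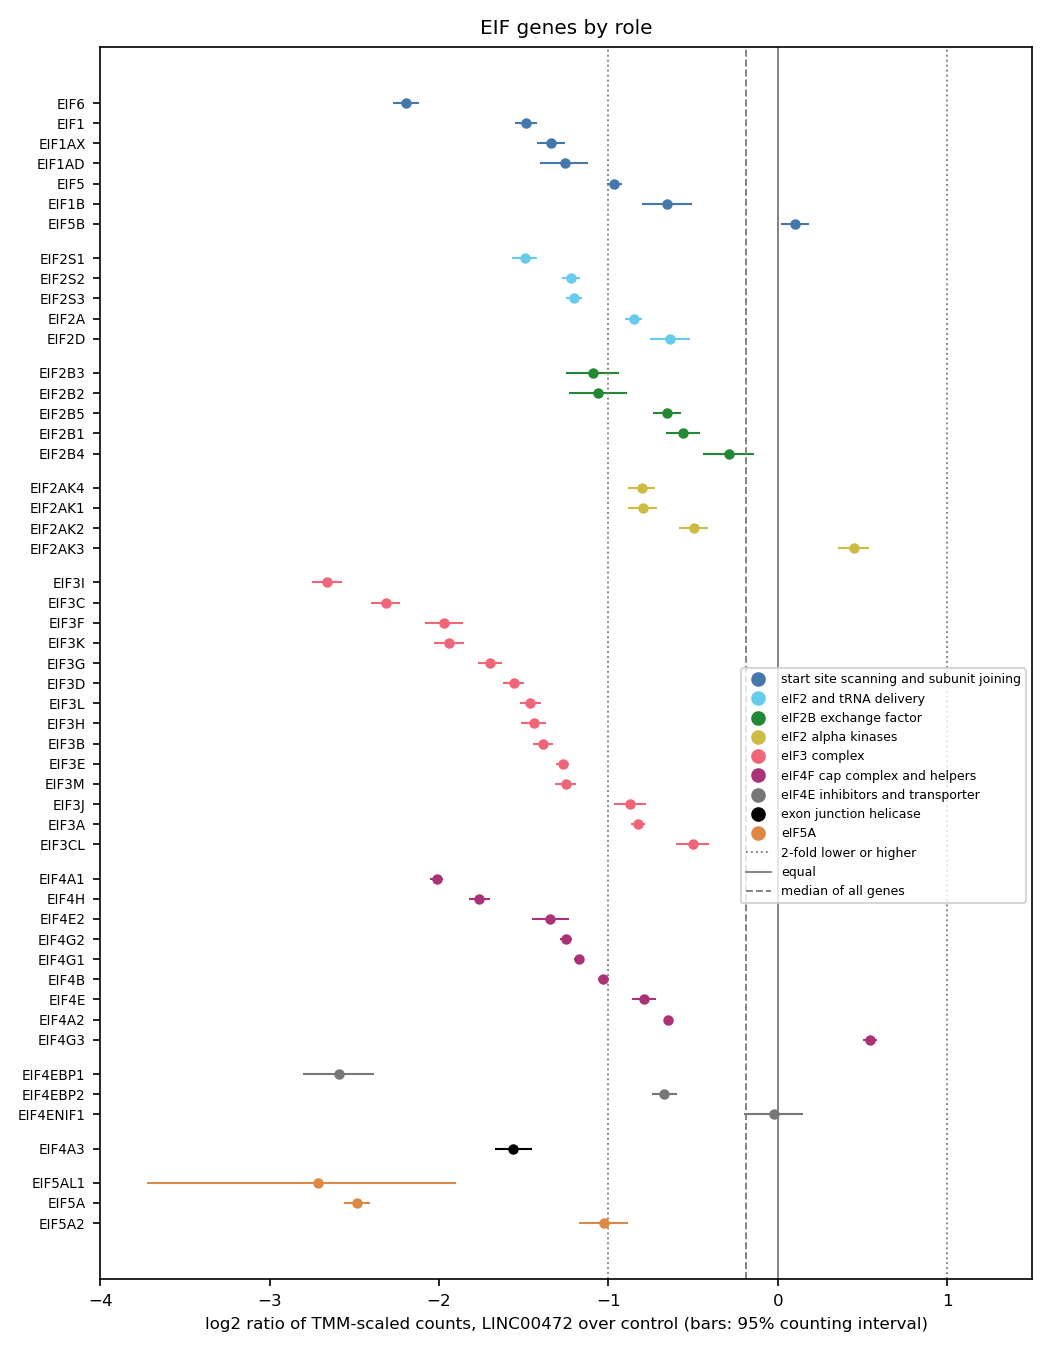
Log2 ratio of TMM-scaled counts (LINC00472 over control, 1 library each) for the 51 initiation factor genes at the expression minimum, grouped by role, with 95% counting intervals as bars. The 14 eIF3 genes all lie left of the line of equality, and 3 genes (EIF5B, EIF2AK3 and EIF4G3) lie right of it.

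The eIF3 complex, the scaffold of the small subunit during initiation, held the broadest decrease by count. Of its 14 genes 11 were lower, with a median log2 ratio of -1.45. EIF3I, a WD-repeat subunit, had 23.7 FPKM in the LINC00472 library against 131 in the control, from 1068 against 14356 counts. Its ratio was 6.32-fold lower (log2 -2.66, interval -2.75 to -2.57), the lowest value among members with more than 12 counts in the LINC00472 library. Leaving EIF3C aside, which is described below, EIF3F, EIF3K and EIF3G followed at 3.91-fold, 3.84-fold and 3.25-fold lower. In the EIF3F transcript, 46.9% of the 50-base stretches recur in other genes, mostly in EIF3FP3 (45.1%). The assignment of reads from those stretches is uncertain. EIF3F and EIF3H carry the MPN domains of the complex, and EIF3K is a small peripheral subunit. EIF3D, the subunit that can itself bind certain caps, was 2.95-fold lower (50.8 against 132 FPKM). EIF3L, EIF3H, EIF3B, EIF3E and EIF3M were between 2.38-fold and 2.75-fold lower. The calls of EIF3E and EIF3M were lost with total counts (9 of 14 lower), and those of EIF3B, EIF3E and EIF3M with upper quartile factors (8 of 14). EIF3B is a core subunit that binds EIF3I and EIF3G. EIF3A, the largest core subunit, had 44.3 against 69.1 FPKM and a log2 ratio of -0.83, and EIF3J, the loosely bound subunit, had 20.1 against 31.6 FPKM and -0.87, so neither reached 2-fold. Adjusted for transcript properties (transcript length, GC content and intron length) both were called lower, EIF3A with a log2 ratio of -1.14, making 13 of 14. Without the copies EIF3C and EIF3CL, the subunit genes of this complex spread from -2.66 to -0.83 on the log2 scale, more than their counting intervals. EIF3I took 40.8% of the summed counts of EIF3I and EIF3A in the control and 16.2% in the LINC00472 library. In FPKM, EIF3E was the most abundant subunit in both libraries (177 and 376).

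EIF3C and its copy EIF3CL, both on chromosome 16, could not be measured apart. EIF3C had 1274 against 13490 counts (log2 ratio -2.31), while EIF3CL had 1131 against 3406 (-0.50). The matched transcripts have coding sequences of 2742 and 2745 nt that are identical over all 2742 aligned bases. Of the 50-base words of the EIF3C transcript, 95.6% occur in another gene, as do 98.8% of those of EIF3CL. Within those aligned bases a read cannot be assigned to either gene by its sequence, so the split of counts between them is uncertain. EIF3C took 79.8% of the pair's counts in the control (exact 95% interval 79.2 to 80.4) and 53.0% in the LINC00472 library (51.0 to 55.0). These intervals leave out the uncertainty of assignment. In the counts of lower genes given here, EIF3C is included and EIF3CL is not, which rests on this split.

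The cap complex held both strong and weak changes, and close relatives differed. Of 9 genes at the minimum in the group of eIF4F and its helpers, 6 were lower, with a median of -1.18. EIF4A1 and EIF4A2 encode near-interchangeable forms of the DEAD-box helicase that unwinds messenger RNA leaders, and EIF4A3 encodes a relative that works in the exon junction complex. The coding sequences around the DEAD-box codons (capitals) are shown, read 5′ to 3′ from the GENCODE 29 transcripts, to let the relatives be told apart.
EIF4A1: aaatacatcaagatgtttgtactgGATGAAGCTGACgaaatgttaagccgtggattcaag
EIF4A2: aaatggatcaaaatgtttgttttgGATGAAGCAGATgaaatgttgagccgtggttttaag
EIF4A3: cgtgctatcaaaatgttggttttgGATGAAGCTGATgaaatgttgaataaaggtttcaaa
Over 1221 aligned coding bases EIF4A1 and EIF4A2 were 76.6% identical, EIF4A1 and EIF4A3 65.4% over 1216 bases, and neither pair shared a 50-base word.

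EIF4A1 had 147 against 521 FPKM, from 6478 against 55657 counts, and was 4.04-fold lower (log2 -2.01, interval -2.05 to -1.98). EIF4A2 had 352 against 485 FPKM and a log2 ratio of -0.65, short of the rule. The library with LINC00472 was thus the one in which EIF4A2 exceeded EIF4A1. EIF4A1 took 51.6% of the pair's counts in the control (51.3 to 51.9) and 29.3% in the LINC00472 library (28.7 to 29.9), a 2.58-fold change in their ratio (log2 -1.36, 95% interval from counts -1.41 to -1.32) that no scaling of libraries can alter. EIF4A3 was 2.95-fold lower (19.8 against 51.4 FPKM). In the EIF4A1 transcript, 29.1% of 50-base words recur elsewhere, mostly in the annotated pseudogene EIF4A1P10, and the others also lie in overlapping loci. The readthrough locus SENP3-EIF4A1 was listed separately with 33 against 28 counts.

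Among the scaffolds, EIF4G1 (84.5 against 166 FPKM) was 2.26-fold lower and EIF4G2, which lacks the eIF4E site and serves cap-independent initiation, 2.38-fold lower (97.8 against 204 FPKM). Their ratio to each other moved by 1.05-fold. EIF4G3, the third scaffold, had 52.9 against 32.2 FPKM, the highest log2 ratio of all members (0.54, interval 0.50 to 0.59), which lay between 0.54 and 0.93 under the count scalings, fell to -0.17 when adjusted for transcript properties and met the rule under none of them. EIF4G1 took 82.4% of the EIF4G1 and EIF4G3 counts in the control and 58.6% in the LINC00472 library, a 3.29-fold change in their ratio. The adjusted log2 ratio of EIF4G1 was -1.08 beside -0.17 for EIF4G3. The cap binder EIF4E had 7.52 against 11.4 FPKM (log2 ratio -0.79), and EIF4E2, a homolog tied to translational repression, was 2.54-fold lower. With adjusted ratios both were lower, EIF4E at -1.33 and EIF4E2 at -1.44. The helicase cofactors EIF4H and EIF4B were 3.39-fold and 2.04-fold lower. Of the 50-base words of their transcripts, 13.8% (EIF4H) and 33.6% (EIF4B) recur in other genes. Calls for EIF4E2, EIF4G1, EIF4G2 and EIF4B were lost with upper quartile factors.

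**Figure D2:**
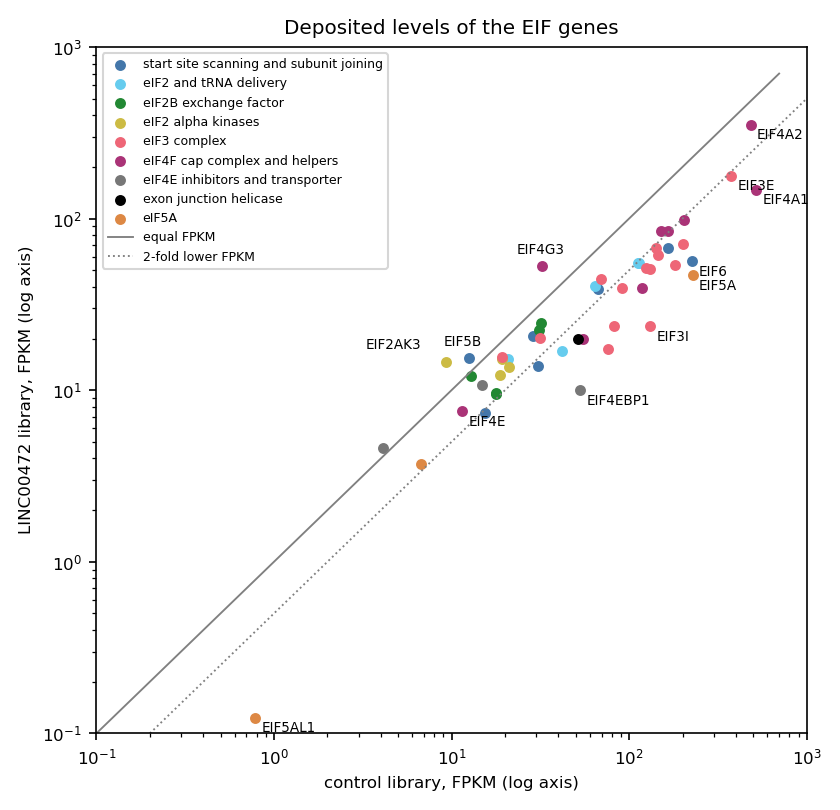
Deposited FPKM of the 51 genes in the control (horizontal, log axis) and LINC00472 (vertical, log axis) libraries, 1 point per gene, coloured by role. EIF4A1 (521 in the control) lies under the line of 2-fold lower FPKM and EIF4A2 (485) above it. EIF4G3, EIF5B, EIF2AK3 and EIF4ENIF1 lie above the line of equal FPKM.

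The inhibitors of eIF4E did not move as a block. EIF4EBP1, the mTOR-controlled binding protein, had 9.98 against 52.9 FPKM, from 202 against 2587 counts, and was 6.01-fold lower (log2 -2.59, interval -2.80 to -2.38). EIF4EBP2, its relative, had 10.7 against 14.9 FPKM (log2 -0.67). In the control the EIF4EBP1 level was 3.55 times that of EIF4EBP2 in FPKM, and in the LINC00472 library 0.935 times. Set against its target, EIF4EBP1 stood at 4.62 times the FPKM of EIF4E in the control and 1.33 times in the LINC00472 library. Adjusted for transcript properties, the log2 ratios were closer, at -1.99 for EIF4EBP1, -0.87 for EIF4EBP2 and -1.33 for EIF4E. EIF4ENIF1, the shuttling protein that carries eIF4E into the nucleus, had 4.61 against 4.12 FPKM and a log2 ratio of -0.02, and 0.27 with total counts. The readthrough locus ANKHD1-EIF4EBP3 had 34 against 1478 counts and was lower, whereas 0 against 3 counts were assigned to EIF4EBP3 itself. Of the 50-base words of the EIF4EBP3 transcript, 71.8% are shared with overlapping genes. The split of reads there is uncertain, and the level of EIF4EBP3 cannot be read from its own counts.

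**Figure D3:**
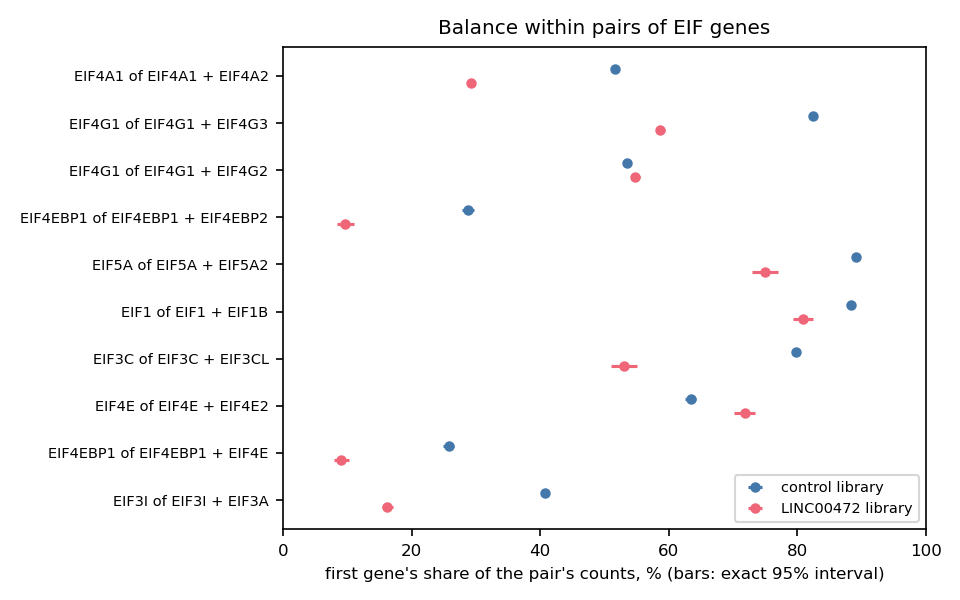
Share of a pair's counts taken by its first gene, in percent, for 10 pairs of initiation factor genes in each library, with exact 95% binomial intervals as bars. The share of EIF4A1 falls from 51.6% to 29.3% and that of EIF4G1 against EIF4G3 from 82.4% to 58.6%, while EIF4G1 against EIF4G2 stays between 53.5% and 54.8%.

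For tRNA delivery, the 3 subunits of eIF2 were lower by similar amounts. EIF2S1, the alpha subunit that the stress kinases phosphorylate, was 2.82-fold lower (1662 against 9959 counts), EIF2S2 2.33-fold (55.0 against 114 FPKM) and EIF2S3 2.30-fold (55.3 against 112 FPKM). EIF2A and EIF2D, which can deliver tRNA without eIF2, had log2 ratios of -0.85 and -0.64. With total counts, only EIF2S1 of the 5 genes of tRNA delivery remained lower.

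The exchange factor eIF2B changed less. Its gamma and beta subunit genes EIF2B3 (9.55 against 17.8 FPKM) and EIF2B2 (9.66 against 17.7) were 2.13-fold and 2.08-fold lower, and neither call held with total counts. EIF2B5, the catalytic epsilon subunit, had a log2 ratio of -0.65, EIF2B1 -0.56 and EIF2B4 -0.29, the last of which was 0.10 with upper quartile factors and 0.16 when adjusted for transcript properties.

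None of the 4 eIF2 alpha kinase genes met the rule. EIF2AK4 (GCN2, the sensor of amino acid lack) had 12.2 against 18.8 FPKM, EIF2AK1 (HRI, the heme sensor) 13.7 against 21.0, and EIF2AK2 (PKR, the double-stranded RNA sensor) 15.3 against 19.2. Their log2 ratios were -0.80, -0.80 and -0.50, and -1.16, -0.95 and -0.81 when adjusted for transcript properties, by which EIF2AK4 was lower. EIF2AK3 (PERK, the sensor of endoplasmic reticulum stress) had 14.6 against 9.33 FPKM and a log2 ratio of 0.45 (interval 0.36 to 0.54), and 0.13 when adjusted for transcript properties. The kinases had long transcripts (median 4558 nt) beside a median of 2887 nt for all 51 genes.

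Genes grouped here under scanning and subunit joining were mixed, and whether each of them, such as EIF1AD, acts in these steps was not examined. EIF6, which keeps the large subunit apart and acts in its maturation, was 4.58-fold lower (56.6 against 228 FPKM, log2 -2.20). EIF1, the guard of start codon choice, was 2.80-fold lower (67.0 against 165 FPKM), EIF1AX 2.52-fold (13.8 against 30.6) and EIF1AD 2.39-fold (7.35 against 15.5). The call of EIF1AD was lost with total counts, and those of EIF1AD and EIF1AX with upper quartile factors. EIF1B, whose coding sequence is 82.2% identical to that of EIF1, had a log2 ratio of -0.65. EIF5, the GTPase activator of eIF2, had 38.9 against 66.6 FPKM (-0.96), just short of the rule, and was lower with an adjusted ratio of -1.05. EIF5B, the GTPase that joins the subunits, had 15.3 against 12.5 FPKM and a log2 ratio of 0.10, which turned to -0.33 when adjusted for transcript properties.

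EIF5A encodes the factor that resolves stalled ribosomes and carries hypusine, a modified lysine made by DHPS and DOHH. Coding bases 121 to 180 of the 3 related genes are shown from GENCODE 29, with the codon of that lysine in capitals, because the retrocopy EIF5AL1 resembles EIF5A much more than EIF5A2 does.
EIF5A: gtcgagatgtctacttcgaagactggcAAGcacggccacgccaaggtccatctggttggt
EIF5A2: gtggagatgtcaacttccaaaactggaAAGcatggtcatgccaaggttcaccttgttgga
EIF5AL1: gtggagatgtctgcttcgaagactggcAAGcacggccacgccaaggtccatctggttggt
EIF5A and EIF5AL1 differed at 5 of 465 coding bases, and EIF5A and EIF5A2 at 131 of 462. EIF5A had 46.7 against 228 FPKM, from 1461 against 17375 counts, and was 5.59-fold lower (log2 -2.48, interval -2.56 to -2.41). In its transcript, 31.7% of 50-base words recur in other genes, mostly in EIF5AL1 (30.1%). EIF5A2 was 2.04-fold lower (3.74 against 6.71 FPKM), a call lost with total counts, and its adjusted log2 ratio was -1.51 beside -1.93 for EIF5A. EIF5AL1 had the lowest log2 ratio of all members (-2.71, interval -3.72 to -1.90), but from 12 against 171 counts that may belong in part to EIF5A. The hypusine enzyme gene DOHH was 6.57-fold lower (0.845 against 5.06 FPKM) and DHPS 2.15-fold lower (30.1 against 57.0). The call of DHPS was lost with total counts, with upper quartile factors (log2 -0.71) and when adjusted for transcript properties (-0.51).

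Small RNAs encoded in introns of these genes had higher ratios than the messenger RNAs of the genes that hold them. GENCODE 29 places 20 small nucleolar RNA and microRNA genes inside member genes on the same strand. Of these, 16 matched the deposited table by name and 11, in 5 host genes, were at the expression minimum. All 11 had a higher log2 ratio than their host, and 10 were higher by the rule, with a median of 1.55. The 11, the 10 and the median include MIR1248, which overlaps SNORA81. All 188 small nucleolar and Cajal body RNAs at the minimum include these RNAs apart from MIR1248. Of the 188, 67.0% were higher, 1.06% were lower and the median was 1.35. With MIR1248 counted, the median of the intronic RNAs of these genes lay near that of the class. This comparison was made after values were seen. The 2 with the highest ratios, both from EIF4A1, are shown from GENCODE 29. Capitals mark the letters TGATG near the 5′ end, part of the box C consensus, and the box D letters CTGA in SNORD10, and the ACA box in SNORA48, the elements by which the C/D and H/ACA classes are recognised.
SNORD10: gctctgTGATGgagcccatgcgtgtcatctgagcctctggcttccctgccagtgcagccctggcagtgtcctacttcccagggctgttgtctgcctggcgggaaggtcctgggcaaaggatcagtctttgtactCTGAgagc
SNORA48: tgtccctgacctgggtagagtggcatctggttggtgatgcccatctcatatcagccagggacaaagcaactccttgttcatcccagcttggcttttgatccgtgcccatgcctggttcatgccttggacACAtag
SNORD10 had 341 against 137 counts (5.28-fold higher) and SNORA48 had 750 against 364 (4.38-fold), while EIF4A1 itself was 4.04-fold lower. SNORA67, the other small RNA of EIF4A1, was 2.06-fold higher. In EIF4A2, SNORA63 had 1958 against 1154 counts (3.61-fold higher), SNORA81 was 2.92-fold and SNORA4 2.46-fold higher, and SNORD2 had a log2 ratio of 0.93. MIR1248, 2.69-fold higher, shares 103 of its 106 bases with SNORA81 and is not a separate measurement. SNORD97 in EIF4G2 was 4.19-fold, SNORA19 in EIF3A 4.11-fold (57 against 29 counts) and SNORA28 in EIF5 2.44-fold higher. Whether reads of unspliced host RNA entered these counts is not given in the sources used here.

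**Figure D4:**
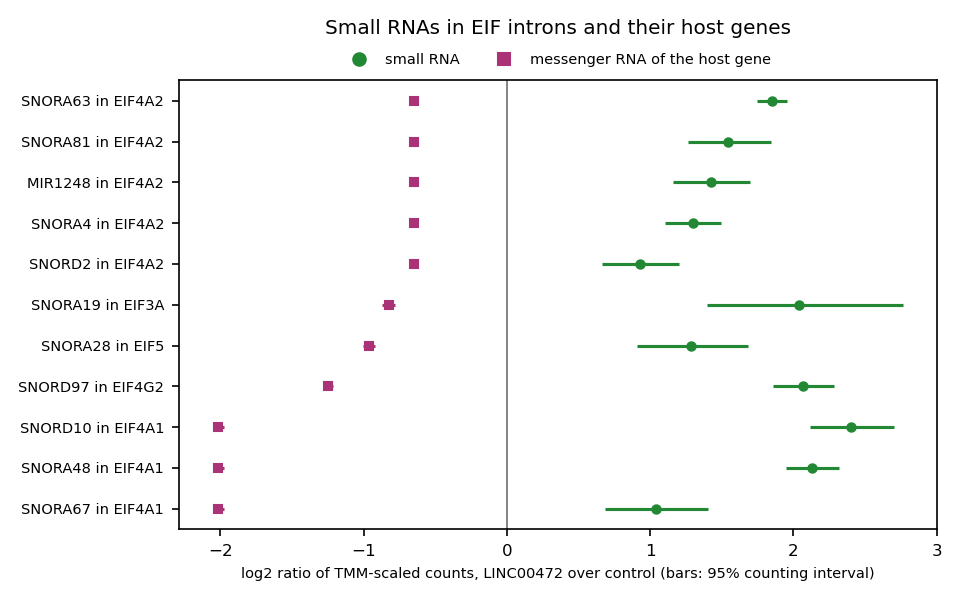
Log2 ratio (LINC00472 over control) of the 11 intronic small RNAs at the expression minimum (circles) and of the messenger RNA of the gene that holds each (squares), with 95% counting intervals. All circles lie right of the line of equality, at 0.93 or above, and all squares lie left of it.

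Transcript length, taken from the longest matched transcript, ran with the ratio among these genes, as it did among protein-coding genes generally. Across the 51 genes, which share both libraries and are not replicates, Spearman's correlation of the log2 ratio was 0.46 with transcript length, -0.36 with GC content and -0.44 with mean FPKM. Over 12303 protein-coding genes the same values were 0.38, -0.21 and -0.31. The 26 members with transcripts up to 2887 nt had a median of -1.36 with 18 lower, and the 25 longer ones -1.03 with 13 lower. Once ratios were adjusted for transcript length, GC and intron length, but not for FPKM, 36 members were lower (the 31 with EIF2AK4, EIF3A, EIF3J, EIF4E and EIF5) and the median was -1.23, beside -0.32 for all genes, and the shorter and longer sets stood at -1.25 and -1.16. Protein-coding genes whose transcripts fell in the middle length range of the members (5743 genes) had a median of -0.37, and 25.3% of them were lower.

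**Figure D5:**
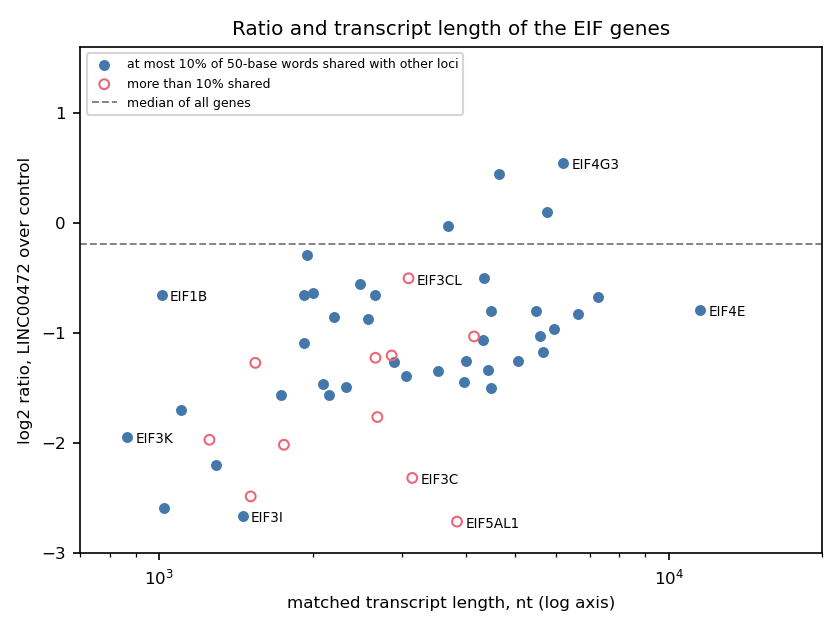
Log2 ratio (LINC00472 over control) of the 51 genes against the length of the longest matched transcript (log axis). Open symbols mark genes with more than 10% of their 50-base words in other loci. Short transcripts such as EIF3K reach -1.94, and EIF4E, the longest, lies at -0.79.

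Promoter sequence was compared in RefSeq windows of 300 bases (GRCh38.p14) from 250 before to 50 after the annotated start, which 42 of the 51 genes matched. A total of 9 motifs, each on both strands, and 1 pattern at the start site were searched, and all are given. CACGTG, an E-box, was found in 11 of 42 members (26.2%) and in 8.78% of all 27305 genes with a window. TTTCCG was found in 19 members (45.2%) against 12.9% of all genes, and CCGGAAG, which holds the core bound by ETS factors, in 12 members (28.6%) against 12.2%. CGCGAGA was found in 6 members (14.3%) against 4.17% of all genes. These 4 motifs were thus present in a larger share of members than of all genes. The members include expressed genes only, whereas the 27305 genes were limited neither to expressed nor to protein-coding genes. CCAAT was found in 20 members (47.6%) against 39.7%, and CTTTCC in 14 (33.3%) against 30.2%. TATAAA was found in 1 member, EIF4A2, against 14.0% of all genes, and TGACGTCA (2.25% of all genes) and the ZNF143 motif (0.289%) in 0 members. Some motifs overlap in sequence, as TTTCCG and CCGGAAG on the same strand can. A cytosine followed by 4 pyrimidines near the start site, as in messenger RNAs with a terminal oligopyrimidine tract, was found in 14 members (33.3%) and in 22.1% of 15843 protein-coding genes. By call, CACGTG was in 8 of 25 lower members and 3 of 17 others, TTTCCG in 11 and 8, CCGGAAG in 8 and 4, CCAAT in 13 and 7, and the pyrimidine pattern in 9 and 5, and these differences were not tested. The 120 bases upstream of the starts of the helicase pair are shown because their ratios differ, and both genes lie on the plus strand. Capitals mark CCAAT in EIF4A1 and the TATA box letters TATAAA in EIF4A2. The EIF4A1 stretch also holds TATAAG, which differs from TATAAA in its last base only and was not searched for.
EIF4A1, chr17:7572705-7572824: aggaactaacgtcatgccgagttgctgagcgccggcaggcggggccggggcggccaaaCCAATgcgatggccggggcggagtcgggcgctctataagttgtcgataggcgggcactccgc
EIF4A2, chr3:186783457-186783576: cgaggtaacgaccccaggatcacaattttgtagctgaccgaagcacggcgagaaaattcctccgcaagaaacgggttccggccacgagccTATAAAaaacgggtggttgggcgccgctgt
A match describes these letters only, and binding was not measured.

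Other genes of the translation pathway gave 29 lower (46.8%) and 0 higher of 62 at the minimum, with a median of -0.94, beside 26.3% lower among protein-coding genes. With total counts 22 were lower (median -0.65), and with upper quartile factors 21 (median -0.55). Elongation and release factors were lower most broadly (11 of 15, median -1.44), among them the translocase EEF2 (143 against 552 FPKM, 4.40-fold), EEF1G (4.06-fold), the tRNA carrier EEF1A1 (711 against 2508 FPKM, 4.01-fold) and EEF1A2 (3.88-fold). Without adjustment, the shares in the next 3 lists lay near that of protein-coding genes. Adjusted for transcript properties, 10 of the 18 helpers were lower (median -1.03), beside 23.9% of all genes. With the same adjustment, 4 of the 17 signalling genes and 1 of the 7 exon junction and decay partners were lower. Of 18 helpers of initiation 6 were lower (33.3%), including BZW1, a mimic of EIF5, with a log2 ratio of -1.58 and ABCF1 with -1.58. The poly(A)-binding protein PABPC1 had 230 against 198 FPKM and a log2 ratio of 0.03. Of 17 genes that signal to initiation 6 were lower (35.3%), including RPS6 (3.91-fold) and the mTOR activator RHEB (2.95-fold), while the kinase MTOR had a log2 ratio of -0.54, ATF4, the transcription factor translated when eIF2 alpha is phosphorylated, -0.48 and the mTOR inhibitor DDIT4 0.83. Of 7 exon junction and decay partners of EIF4A3, RBM8A (3.29-fold) and MAGOH (2.44-fold) were lower (28.6%), and MAGOHB and UPF3B had log2 ratios of 0.46 and 0.71. SBDS and RPL23, which act with or bind beside EIF6 on the large subunit, were 4.01-fold and 4.03-fold lower, and EFL1 had -0.31. With upper quartile factors 3 pathway genes were higher, namely DDIT4, MCTS1 and UPF3B. With adjusted ratios 2 were higher, DDIT4 at 1.08 and MCTS1 at 1.01.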

How the data were processed

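RNA of 2 NCI-H838 cultures was sequenced, and the titles assign 1 library to each group. Read counts per gene, not normalized, and FPKM values were deposited by the authors, per the file headers. The submitters' processing notes list HISAT2 2.1.0, StringTie 1.3.4b, Trimmomatic, bcl2fastq 2.20.0 and the build hg19, without roles. Whether reads were counted by strand is not given in the sources used here, so reads from stretches where genes overlap on opposite strands cannot be separated. The single-library tables held the same counts.

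Scaling used the TMM method of edgeR 4.0.16 (R 4.3.3), with a prior count of 0.5 for ratios. Intervals of ratios are exact conditional (Clopper-Pearson) 95% intervals, those of changes within a pair come from the log odds ratio of 4 counts, and both cover counting error alone, because reads may be copies of one molecule. Total counts of 21093055 and 54823706 keep the intervals of members narrow (median distance of 0.08 from centre to bound on the log2 scale), except EIF5AL1 (0.91). GENCODE 29 supplied the length, GC content and summed introns of transcripts, matched by gene and transcript ID (97.2% of genes at the minimum). The longest matching transcript of each gene was used, and it may be longer than the transcripts that gave the reads. For adjusted ratios, splines of these properties (5 knots, degree 3, scikit-learn 1.9.0, R squared 0.114) were fitted to 13616 genes, and the residual was put back on the median. Shared words are 50-base stretches of the matched transcript found, on either strand, in transcripts of other genes. The procedure was tested on simulated data.

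Alternatives were total counts, upper quartile factors, DESeq2 1.42.0 size factors, totals without the 100 most abundant genes, a prior count of 5, minimums of 0.1 and 5 CPM, FPKM with 0.5 added and adjusted ratios. Added once values were known were a control thinned to equal depth and members with few shared words. Members, lists and tests were chosen with earlier results of these data known. Every member may be named, with up to 4 genes of the largest absolute ratio per pathway list. PABPC1, MCTS1, MTOR, ATF4, DDIT4 and MAGOHB, beyond that rule, and the 10 pairs, the intronic RNAs and the promoter patterns were chosen after values were seen. Coordinates are given only for promoters, in the build of the RefSeq table.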

Additional observations from a re-analysis of the deposited data

How the results depend on the processing

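The count of lower members was 31 with TMM, 20 with total counts, 20 with totals without the 100 most abundant genes and 17 with upper quartile factors. All of the calls under these 3 settings were among the 31. The median log2 ratio of the members was -1.20 with TMM, -0.91 with total counts, -0.90 without the 100 most abundant genes, -0.81 with upper quartile factors, -1.01 with FPKM and -1.04 over the 40 members with few shared words. The median of all genes moved likewise, from -0.19 with TMM to 0.11 (total counts) and 0.21 (upper quartile), so that ratios near 2-fold depend on the scaling. Of the 31 members, 17 were lower under every scaling, the larger prior count, FPKM and adjusted ratios, among them EIF3I, EIF4EBP1, EIF5A, EIF6, EIF4A1 and EIF2S1. Over all genes the rule called 3531 higher and 1993 lower with upper quartile factors against 2288 and 3341 with TMM, and 3576 higher at a minimum of 0.1 CPM and 1347 at 5 CPM. Pathway genes called higher rose from 0 to 1 with total counts (DDIT4), to 3 with upper quartile factors and to 2 with adjusted ratios. No paired analysis was possible because each group holds 1 library. Depth limits EIF5AL1, EIF4EBP3 and EIF4E3, whose counts in the LINC00472 library were 12, 0 and 5. For EIF4EBP3, sequence shared with overlapping genes is a further limit.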

Other observations

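Of the antisense loci of initiation factor genes, EIF1B-AS1 and EIF3J-AS1 were at the minimum and 1 was higher, beside 16.3% of all genes. EIF1AX-AS1 had 0 counts in both libraries. EIF1B-AS1 had 45 against 15 counts and was 6.15-fold higher (log2 2.62, interval 1.80 to 3.62), while its sense partner EIF1B had a log2 ratio of -0.65. EIF3J-AS1 had 290 against 884 counts and a log2 ratio of -0.52, and EIF3J had -0.87. These noncoding loci were outside the member rule and were looked at after values were seen. Of the words of the matched EIF1B transcript, 0.0% occurred in transcripts of other genes on either strand, overlapping genes included. No overlap of that transcript with EIF1B-AS1 was thus found at this word length. For EIF3J, 2.34% occurred only in overlapping genes. Reads from such stretches cannot be separated without a known strand setting. Reads from outside the matched transcripts were not examined.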
